A study of Mus musculus with 8 samples.

Results

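Glucose enters a leukemia cell through membrane transporters, is broken down to pyruvate, and leaves in large part as lactate. The 10 genes described here cover that route: the glucose transporters Slc2a1 and Slc2a3, the hexokinases Hk1 and Hk2, the phosphofructokinases Pfkp and Pfkl, lactate dehydrogenase Ldha, the monocarboxylate transporters Slc16a1 and Slc16a3, and the pyruvate dehydrogenase kinase Pdk1. They were named by their place in the route, with earlier results of these data known, so the choice was not blind to the data. They are 10 of 18193 genes that the arrays named and hold 24 of 45037 probe sets.

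RNA came from 2 T cell leukemia lines that arose in E2a-/- mice of the FVB/NJ strain, and was measured on 8 arrays. Every cell therefore lacked E2a, the gene of the E protein transcription factors E12 and E47. The Lef1F/F line (genotype E2a-/-Lef1F/F) carried floxed Lef1 alleles, which Cre recombinase can delete, and the E2a-/- line carried unmodified Lef1. Lef1 encodes a TCF/LEF family factor of Wnt signaling and T cell development. The groups were Lef1F/F MigR1-Cre, Lef1F/F MigR1, E2a-/- MigR1-Cre and E2a-/- MigR1, with 2 arrays each. MigR1 is a retrovirus that marks infected cells with GFP, MigR1-Cre also produces Cre, and GFP+ cells were sorted at 72 h. There was 1 line per genotype, and a difference of genotype and a difference between lines cannot be told apart. The labels do not give separate cultures for the arrays of a group, and p-values then cover the spread between these arrays alone, which may be technical.

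As background, hexokinase traps glucose in the cell as glucose 6-phosphate, and phosphofructokinase commits it to glycolysis. Lactate dehydrogenase turns pyruvate into lactate, which monocarboxylate transporters carry out with a proton, while pyruvate dehydrogenase kinases hold pyruvate back from the mitochondrial oxidation. Dividing T cells and T cell leukemias are known for high glucose uptake and lactate output, and Myc and the hypoxia inducible factors are known activators of many of these genes.

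The promoters below are those of Slc2a1, Pfkp and Hk2, the members with an entry whose brightest probe set differed between the lines, with Ldha as a well known target of hypoxia inducible factors and Myc. Each is the 250 bases before a RefSeq start site in GRCm38.p6, 5′ to 3′ on the strand of the gene. The letters ACGTG and GCGTG, forms of the core of the hypoxia response element, and CACGTG, the E box that Myc can bind, stand in capitals as read on either strand, so that CACGT and CACGC are ACGTG and GCGTG on the other strand.
Slc2a1 promoter, chr4:119108495-119108744, plus strand: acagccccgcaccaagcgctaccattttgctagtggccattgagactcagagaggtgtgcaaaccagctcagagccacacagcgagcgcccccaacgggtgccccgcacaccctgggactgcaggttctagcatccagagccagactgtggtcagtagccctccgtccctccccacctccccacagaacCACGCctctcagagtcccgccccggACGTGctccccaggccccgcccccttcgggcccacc
Pfkp promoter, chr13:6648772-6649021, minus strand: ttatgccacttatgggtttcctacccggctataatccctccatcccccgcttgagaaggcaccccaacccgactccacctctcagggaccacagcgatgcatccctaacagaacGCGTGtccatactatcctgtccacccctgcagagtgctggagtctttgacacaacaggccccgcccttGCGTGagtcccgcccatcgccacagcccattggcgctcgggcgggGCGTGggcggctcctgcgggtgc
Hk2 promoter, chr6:82774455-82774704, minus strand: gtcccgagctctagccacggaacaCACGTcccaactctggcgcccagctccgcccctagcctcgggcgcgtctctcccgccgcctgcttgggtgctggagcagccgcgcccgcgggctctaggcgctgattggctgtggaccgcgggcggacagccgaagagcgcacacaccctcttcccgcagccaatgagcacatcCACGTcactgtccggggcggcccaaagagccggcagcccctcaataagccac
Ldha promoter, chr7:46845554-46845803, plus strand: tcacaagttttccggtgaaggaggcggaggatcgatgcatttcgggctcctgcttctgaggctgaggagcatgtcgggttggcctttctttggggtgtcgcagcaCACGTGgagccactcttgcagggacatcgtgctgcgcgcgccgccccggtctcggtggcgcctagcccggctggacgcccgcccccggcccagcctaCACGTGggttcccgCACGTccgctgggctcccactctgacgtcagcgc
RefSeq promoter entries were matched for 9 of the 10 genes (all but Slc2a3), with 12 start sites. The Slc2a1 window held ACGTG 1 time and GCGTG 1 time, the Pfkp window held GCGTG 3 times, and the Hk2 window held ACGTG 2 times. The window shown for Ldha is that of the first of 2 start sites. It held CACGTG 2 times and ACGTG 5 times, of which 4 lie within the 2 CACGTG, since that palindrome holds ACGTG on each strand, and the window of the second start site held neither. Of the 12 windows of the 9 genes, 5 held ACGTG, 7 held GCGTG and 2 held CACGTG. Over 32851 mouse promoter windows of this length, ACGTG was found in 16.6%, GCGTG in 28.2% and CACGTG in 6.02%. The letters CTTTGAT and CTTTGTT, written for TCF/LEF sites and searched on both strands, were in 3.21% and 5.03% of all windows and in 0 of the 12 windows of the 9 genes. These matches are descriptions of letters only.

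The 8 arrays had median intensities of 88.9 to 91.0, and precision is limited by how few arrays there were. Lef1 itself checked the labels of the Lef1F/F arrays: its brighter probe set stood at 1903 and 1678 in Lef1F/F MigR1-Cre arrays, against 6918 and 6126 in Lef1F/F MigR1 arrays. The field of the labels that names the vector disagrees with the titles for the E2a-/- MigR1-Cre and Lef1F/F MigR1 arrays. Groups here follow the titles, and Lef1, which is not floxed in the E2a-/- line, does not check the vector of those arrays. Of 13 T lineage markers measured, 12 had a mean intensity over 180, which is 2 times the typical median, and Cd4 did not. B lineage markers were over it in 0 of 5 cases, myeloid markers in 0 of 7 and erythroid and platelet markers in 0 of 4. Of 6 stromal markers, Col1a2 alone was over it. The summed stromal intensity lay between 712 and 784 in Lef1F/F arrays, against 4534 to 4771 in E2a-/- arrays, and the summed T lineage intensity between 45538 and 51075, against 44480 to 45422. Members within a list went different ways. In MigR1 arrays Cd3e, Cd3g and Bcl11b rose (0.32, 0.46 and 0.36 on the log2 scale) and Ptprc, Cd8a and Ptcra fell (-0.30, -2.97 and -0.36), while Col1a2 fell (-3.78) and Pdgfrb rose (0.72). In MigR1-Cre arrays the same held but for Ptcra (0.21) and Pdgfrb (0.18), which did not pass. The part of these markers in the line differences below was not tested. In the Lef1F/F line, arrays correlated better across vectors (r = 0.9975 for the first MigR1-Cre and MigR1 arrays and for the second ones) than within a vector (0.9943 in MigR1-Cre and 0.9945 in MigR1), over 45037 probe sets that share normalisation.

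The largest differences among the 10 genes lay between the lines, and the glucose transporters went in opposite directions. Slc2a3, which encodes GLUT3, a transporter of high affinity for glucose, was 10.1-fold higher in the Lef1F/F line at its brightest probe set in MigR1 arrays and 7.43-fold higher in MigR1-Cre arrays. Slc2a1, which encodes GLUT1, the widespread transporter of basal glucose uptake, was 1.76-fold and 1.79-fold lower. Pfkp, the platelet type phosphofructokinase, was 2.14-fold and 2.30-fold higher. Of the 24 probe sets, 3 rose, 3 fell and 18 did not pass in MigR1 arrays (limma, adjusted p under 0.05 over all probe sets). Over all 45037 probe sets 10.7% passed, 6.06% upward and 4.67% downward. In MigR1-Cre arrays 4 rose, 4 fell and 16 did not pass, against 12% of all probe sets (5.97% upward and 6.02% downward). The median log2 difference of the 24 was 0.04 in each, against -0.01 over all probe sets in MigR1 arrays and 0 in MigR1-Cre arrays. In bulk RNA, fewer cells with a transcript and less of it per cell cannot be told apart.

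**Figure D1:**
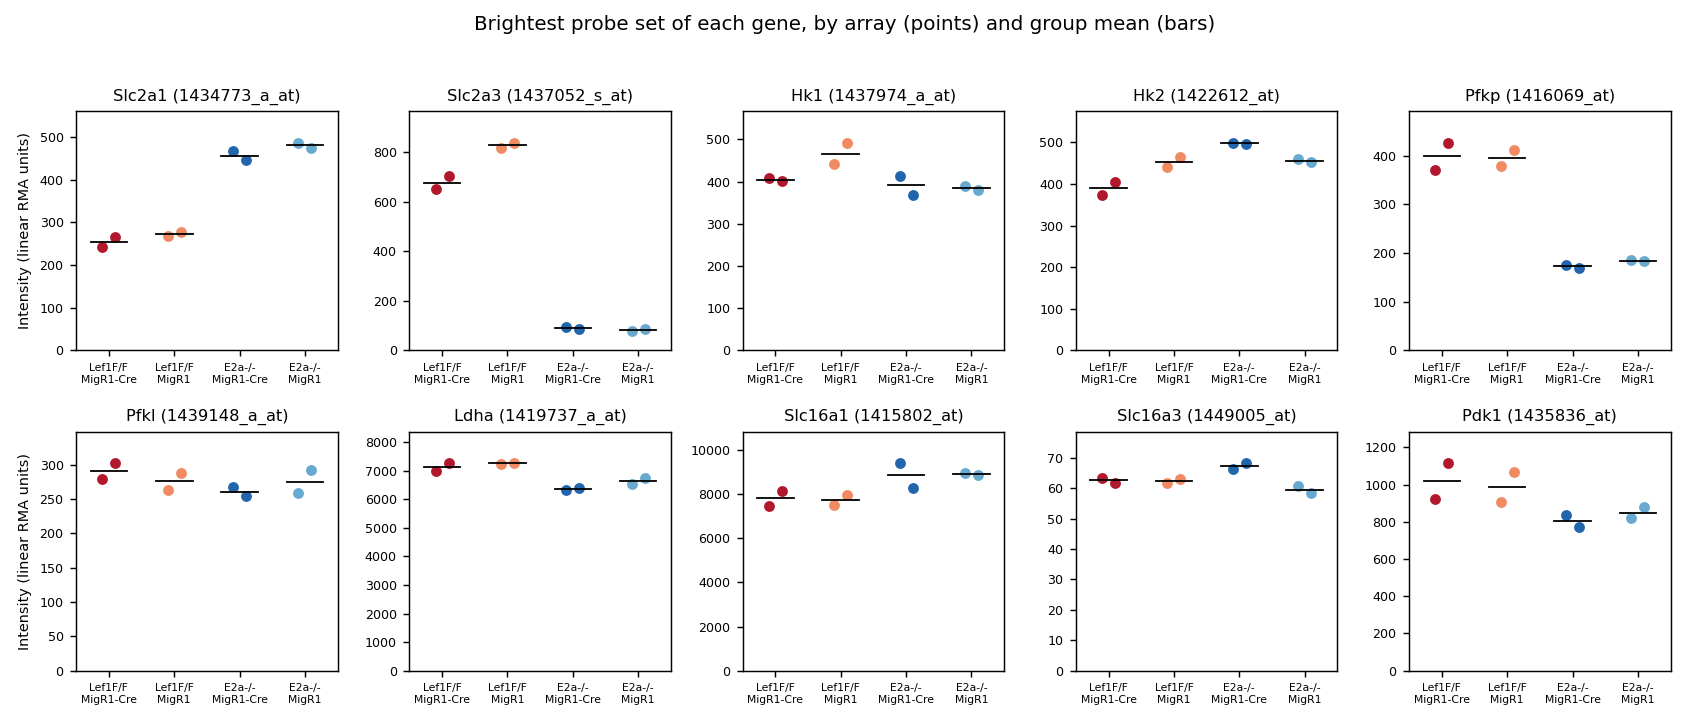
Intensity of the brightest probe set of each of the 10 genes (linear RMA units, vertical axes from 0) in Lef1F/F MigR1-Cre, Lef1F/F MigR1, E2a-/- MigR1-Cre and E2a-/- MigR1 arrays. Points show single arrays and bars the mean of 2; Slc2a3 and Pfkp were higher in all 4 Lef1F/F arrays than in any E2a-/- array, and Slc2a1 was lower.

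Slc2a3 was read by 4 probe sets. The brightest, 1437052_s_at, stood at 651 and 704 in Lef1F/F MigR1-Cre arrays and at 819 and 839.5 in Lef1F/F MigR1 arrays, against 95.4 and 87.1 in E2a-/- MigR1-Cre arrays and 79.1 and 85.9 in E2a-/- MigR1 arrays. The E2a-/- values lay close to the array medians, where RMA compresses differences, which was not measured here and would make the fold too small. On the log2 scale the line difference was 2.89 ± 0.08 (SE, adjusted p = 3.14e-07) in MigR1-Cre arrays and 3.33 ± 0.08 (adjusted p = 1.49e-07) in MigR1 arrays. A further probe set, 1455898_x_at, gave 263 and 320.3 in Lef1F/F MigR1-Cre arrays and 349.7 and 378 in Lef1F/F MigR1 arrays, against 54.4 and 58.5 in E2a-/- MigR1-Cre arrays and 51.2 and 62.6 in E2a-/- MigR1 arrays. Its log2 differences were 2.37 ± 0.12 and 2.68 ± 0.12 (adjusted p = 1.08e-05 and 5.16e-06 in MigR1-Cre and MigR1 arrays). The platform annotation ties 1437052_s_at and 1455898_x_at to 1 sequence record, and their suffixes mark probes that can match more than 1 transcript, so they are not independent readings. The other pair, 1421924_at and 1427770_a_at, lay between 52.9 and 71.1 in all 8 arrays and did not pass, with log2 differences of 0.20 ± 0.12 and -0.09 ± 0.08 in MigR1 arrays and 0.10 ± 0.12 and 0.03 ± 0.08 in MigR1-Cre arrays. The rise of Slc2a3 therefore rests on 2 of its 4 probe sets.

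Slc2a1 was lower in the Lef1F/F line at all 3 of its probe sets, with no overlap between the arrays of the lines. At 1434773_a_at the arrays gave 243 and 267 in Lef1F/F MigR1-Cre and 267 and 278 in Lef1F/F MigR1, against 467 and 446 in E2a-/- MigR1-Cre and 487 and 474 in E2a-/- MigR1. The log2 differences were -0.84 ± 0.07 in MigR1-Cre arrays and -0.82 ± 0.07 in MigR1 arrays (adjusted p = 0.000153 and 0.000163). At 1426599_a_at they were -0.70 ± 0.07 and -0.74 ± 0.07 (adjusted p = 0.000472 and 0.000344). At 1426600_at they were -0.71 ± 0.12 and -0.65 ± 0.12 (adjusted p = 0.00765 and 0.0117). The call at 1426600_at in MigR1 arrays was lost without E2a-/- MigR1 array 1 or 2 or Lef1F/F MigR1 array 2 (adjusted p = 0.0906, 0.0914 and 0.0543), and that in MigR1-Cre arrays without E2a-/- MigR1-Cre array 1 (adjusted p = 0.0733), while the calls at the 2 brighter probe sets stood whichever array was left out.

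**Figure D2:**
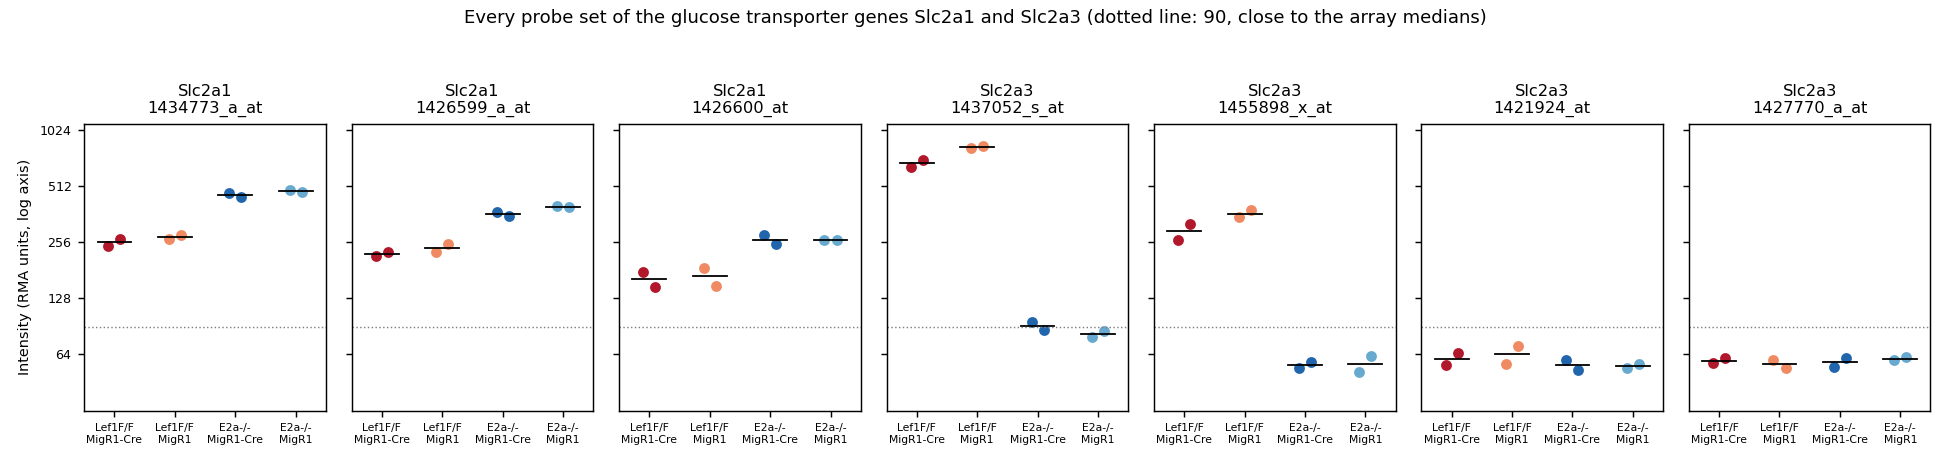
Intensity of the 3 Slc2a1 and 4 Slc2a3 probe sets (RMA units, logarithmic axis) by group, with points for arrays and bars for means of 2 arrays; the dotted line lies at 90, close to the array medians. All Slc2a1 probe sets were lower in the 4 Lef1F/F arrays, 2 Slc2a3 probe sets were higher in them, and the other 2 stayed between 52.9 and 71.1.

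The hexokinases differed little between the lines. Hk1 encodes the form found in most tissues and Hk2 the inducible form, and both attach to mitochondria. Hk2 gave 374 and 405 in Lef1F/F MigR1-Cre arrays and 441 and 464 in Lef1F/F MigR1 arrays, against 499 and 496 in E2a-/- MigR1-Cre arrays and 459.6 and 452 in E2a-/- MigR1 arrays. It was 1.28-fold lower in the Lef1F/F line in MigR1-Cre arrays (log2 -0.35 ± 0.06, adjusted p = 0.00904), and the value in MigR1 arrays was -0.01 ± 0.06 (adjusted p = 0.956), so the 2 arrays of Lef1F/F MigR1-Cre held the lowest values and those of E2a-/- MigR1-Cre the highest. Without E2a-/- MigR1-Cre array 1 or array 2 the call was lost (adjusted p = 0.0623 and 0.0599). Hk1 at 1437974_a_at stood at 408 and 402 in Lef1F/F MigR1-Cre arrays and 441 and 492 in Lef1F/F MigR1 arrays, against 413 and 369 in E2a-/- MigR1-Cre arrays and 390.5 and 379.8 in E2a-/- MigR1 arrays. Its line differences were 0.05 ± 0.08 in MigR1-Cre arrays and 0.27 ± 0.08 in MigR1 arrays, where the arrays did not overlap and adjusted p was 0.0685. The other Hk1 probe set, 1420901_a_at, lay between 75.6 and 96.7 in all arrays.

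Phosphofructokinase subunits went apart. Pfkp at 1416069_at gave 371 and 427 in Lef1F/F MigR1-Cre arrays and 378 and 411 in Lef1F/F MigR1 arrays, against 176 and 170.2 in E2a-/- MigR1-Cre arrays and 185 and 184 in E2a-/- MigR1 arrays. The log2 differences were 1.20 ± 0.08 and 1.09 ± 0.08 (adjusted p = 5.44e-05 in MigR1-Cre and 8.17e-05 in MigR1 arrays). This is the brightest of 3 Pfkp probe sets. The other 2 lay between 60.04 and 103 and did not pass, with differences of 0.22 ± 0.10 and -0.08 ± 0.10 in MigR1-Cre arrays and 0.17 ± 0.10 and 0.08 ± 0.10 in MigR1 arrays. Without Lef1F/F MigR1-Cre array 1, 1430634_a_at passed as well (0.38, adjusted p = 0.0232). Pfkl, the liver type subunit, did not pass at any of its 3 probe sets. At the brightest it gave 279 and 303 in Lef1F/F MigR1-Cre arrays and 264 and 289 in Lef1F/F MigR1 arrays, against 267 and 255 in E2a-/- MigR1-Cre arrays and 258 and 292 in E2a-/- MigR1 arrays, and over the 3 probe sets the line differences ran between -0.14 and 0.16. The muscle type subunit Pfkm, which is not among the 10 genes, was lower in the Lef1F/F line in MigR1-Cre arrays (-0.78 ± 0.15, adjusted p = 0.013) and in MigR1 arrays (-0.64 ± 0.15, adjusted p = 0.0326).

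Lactate dehydrogenase and the lactate transporters did not pass in any comparison. Ldha stood at 6998 and 7257 in Lef1F/F MigR1-Cre arrays and 7251 and 7279 in Lef1F/F MigR1 arrays, against 6328 and 6389 in E2a-/- MigR1-Cre arrays and 6537 and 6753 in E2a-/- MigR1 arrays. All 4 Lef1F/F arrays lay above all 4 E2a-/- arrays, by 0.16 ± 0.06 in MigR1-Cre arrays (95% interval 0.03 to 0.29, adjusted p = 0.113) and 0.13 ± 0.06 in MigR1 arrays (0 to 0.26, adjusted p = 0.232). Slc16a1, which encodes the widespread lactate transporter MCT1, gave 7471 and 8138 in Lef1F/F MigR1-Cre arrays and 7486 and 7942 in Lef1F/F MigR1 arrays, against 9420 and 8299 in E2a-/- MigR1-Cre arrays and 8937 and 8874 in E2a-/- MigR1 arrays. It lay lower in all Lef1F/F arrays, by -0.18 ± 0.08 and -0.21 ± 0.08 on the log2 scale (adjusted p = 0.219 in MigR1-Cre and 0.168 in MigR1 arrays). Its other probe set, 1446274_at, lay between 96.8 and 107 throughout. Slc16a3, which encodes MCT4, a lactate exporter of strongly glycolytic cells, lay between 58.3 and 68.4 in all 8 arrays, under the array medians.

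Pdk1, the pyruvate dehydrogenase kinase induced by hypoxia, had 4 probe sets. The brightest, 1435836_at, gave 924 and 1117 in Lef1F/F MigR1-Cre arrays and 906 and 1066 in Lef1F/F MigR1 arrays, against 837 and 772 in E2a-/- MigR1-Cre arrays and 818 and 879.9 in E2a-/- MigR1 arrays. Its line differences of 0.34 ± 0.11 and 0.21 ± 0.11 did not pass (adjusted p = 0.102 in MigR1-Cre and 0.336 in MigR1 arrays), though the arrays of the lines did not overlap. At 1423747_a_at the arrays gave 634 and 749 in Lef1F/F MigR1-Cre and 506 and 621 in Lef1F/F MigR1, against 489.6 and 389 in E2a-/- MigR1-Cre and 472 and 457 in E2a-/- MigR1. This probe set was 1.58-fold higher in the Lef1F/F line in MigR1-Cre arrays (0.66 ± 0.14, adjusted p = 0.0176) and did not pass in MigR1 arrays (0.27 ± 0.14, adjusted p = 0.314). Its call was lost without E2a-/- MigR1-Cre array 2 (adjusted p = 0.13) or Lef1F/F MigR1-Cre array 2 (adjusted p = 0.0943). Without Lef1F/F MigR1-Cre array 1 the brightest probe set passed in MigR1-Cre arrays (0.47, adjusted p = 0.0332). A further probe set, 1423748_at, gave 0.28 ± 0.12 and 0.13 ± 0.12 without passing, and 1434974_at lay between 48.3 and 59.9.

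**Figure D3:**
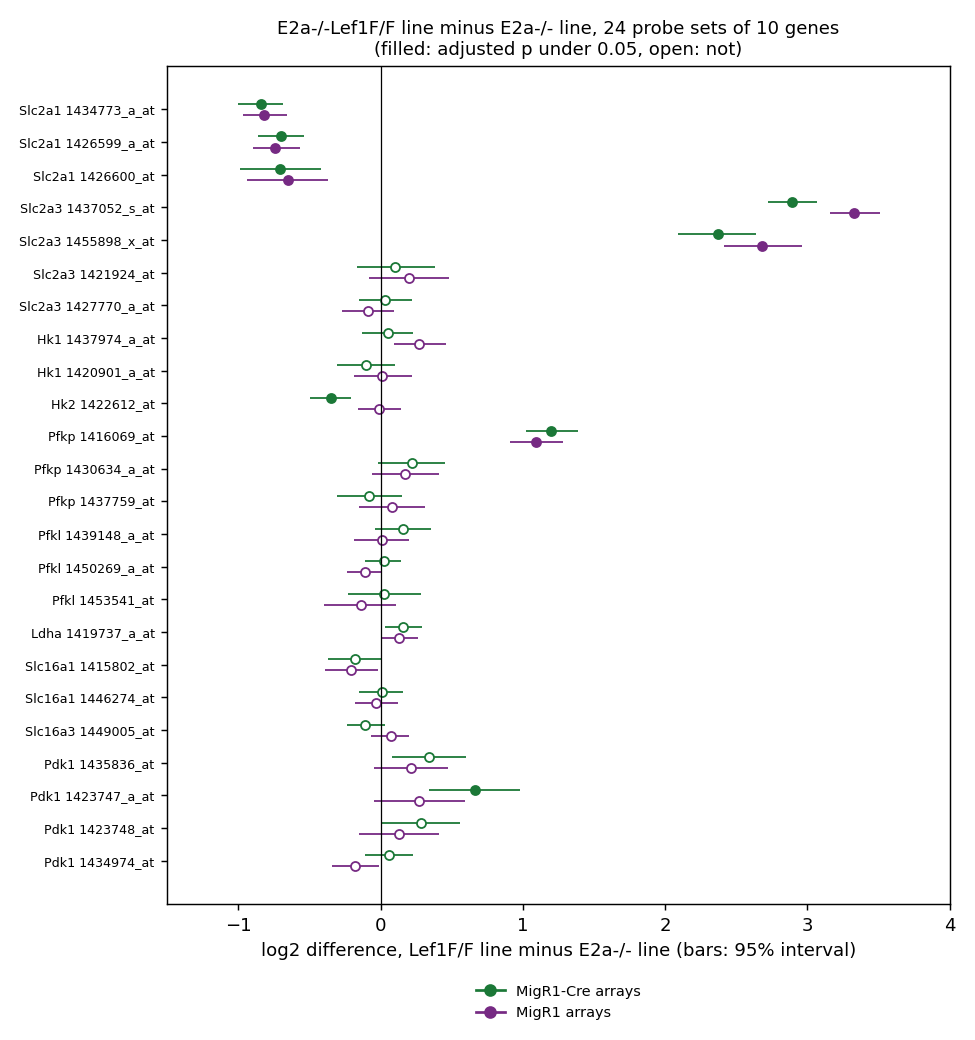
Difference between the lines (log2, E2a-/-Lef1F/F line minus E2a-/- line) at each of the 24 probe sets, in MigR1-Cre arrays (upper mark of each row) and MigR1 arrays (lower mark), with 95% intervals. Filled marks have adjusted p under 0.05; they are the 3 Slc2a1, 2 Slc2a3 and 1 Pfkp probe sets in both kinds of array, and Hk2 and 1 Pdk1 probe set in MigR1-Cre arrays.

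How far the arrays of the lines stood apart was counted for all 24. They did not overlap at 17 probe sets in MigR1-Cre arrays, 10 higher and 7 lower in the Lef1F/F line, against 23.6% and 26.5% of all probe sets. In MigR1 arrays the counts were also 10 higher and 7 lower, against 22.9% and 27.3% of all. Over the brightest probe sets of the 10 genes, 2 rose (Slc2a3 and Pfkp) and 2 fell (Slc2a1 and Hk2) in MigR1-Cre arrays, where 16.1% of 18193 genes passed (8.6% upward and 7.46% downward), and 2 rose and 1 fell (Slc2a1) in MigR1 arrays, where 14.6% passed (8.71% and 5.88%).

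The second question was what differed 72 h after Cre reached the cells with floxed Lef1. With limma, 0 of the 24 probe sets passed in the Lef1F/F line and 0 in the E2a-/- line, against 0.167% and 0% of all probe sets. At an unadjusted limma p under 0.05 there were 4 and 1, against 2100 and 836 of all 45037 probe sets. Arrays did not overlap at 3 higher and 5 lower probe sets in the Lef1F/F line (15.4% and 13.7% of all) and at 3 and 7 in the E2a-/- line (16.2% and 15.2% of all). The median difference of the 24 was 0 in the Lef1F/F line and -0.05 in the E2a-/- line, against 0 over all probe sets in each. The MigR1 arrays of a line serve both this comparison and that between the lines, so the 2 sets of values share arrays.

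In the Lef1F/F line the 4 were both bright Slc2a3 probe sets, Hk2 and Hk1, all lower after MigR1-Cre with no overlap between arrays. Slc2a3 gave a log2 difference of -0.29 ± 0.08 at 1437052_s_at (95% interval -0.47 to -0.12, adjusted p = 0.5) and of -0.32 ± 0.12 at 1455898_x_at (adjusted p = 0.967). Hk2 gave -0.22 ± 0.06 (-0.36 to -0.07, adjusted p = 0.688) and Hk1 -0.20 ± 0.08 (-0.39 to -0.02, adjusted p = 0.99). These probe sets gave, in the E2a-/- line, 0.15 ± 0.08, -0.01 ± 0.12, 0.13 ± 0.06 and 0.02 ± 0.08, and Slc16a3, dim in all arrays, gave 0.18 ± 0.06 with an unadjusted p of 0.0149 and an adjusted p of 1. The test of the difference between the effects in the lines gave -0.44 ± 0.11 for Slc2a3 at 1437052_s_at (unadjusted limma p of 0.00346) and -0.34 ± 0.09 for Hk2 (0.00524), each with adjusted p = 1, and 0 of the 24 probe sets passed it, against 0.02% of all.

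Intervals give a rough bound for the others. Intervals and p-values use a residual spread shared by both lines. The SD of log2 differences between replicate arrays was 0.185 in Lef1F/F MigR1-Cre and 0.182 in Lef1F/F MigR1. It was 0.119 in E2a-/- MigR1-Cre and 0.107 in E2a-/- MigR1. Intervals may therefore be too narrow on average for the Lef1F/F line and too wide for the E2a-/- line. For Slc2a1 at its brightest probe set the effect of MigR1-Cre was -0.10 ± 0.07 in the Lef1F/F line (95% interval -0.26 to 0.06) and -0.07 ± 0.07 in the E2a-/- line (-0.23 to 0.08). For Ldha it was -0.03 ± 0.06 (-0.16 to 0.10) and -0.06 ± 0.06 (-0.19 to 0.07), and for Slc16a1 0.02 ± 0.08 (-0.17 to 0.20) and -0.01 ± 0.08 (-0.19 to 0.17). Pfkp gave 0.01 ± 0.08 (-0.17 to 0.20) and -0.09 ± 0.08 (-0.28 to 0.09). The highest value in the Lef1F/F line was that of Pdk1 at 1423747_a_at, 0.30 ± 0.14 (-0.02 to 0.62), whose 2 arrays after MigR1-Cre lay above those after MigR1.

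**Figure D4:**
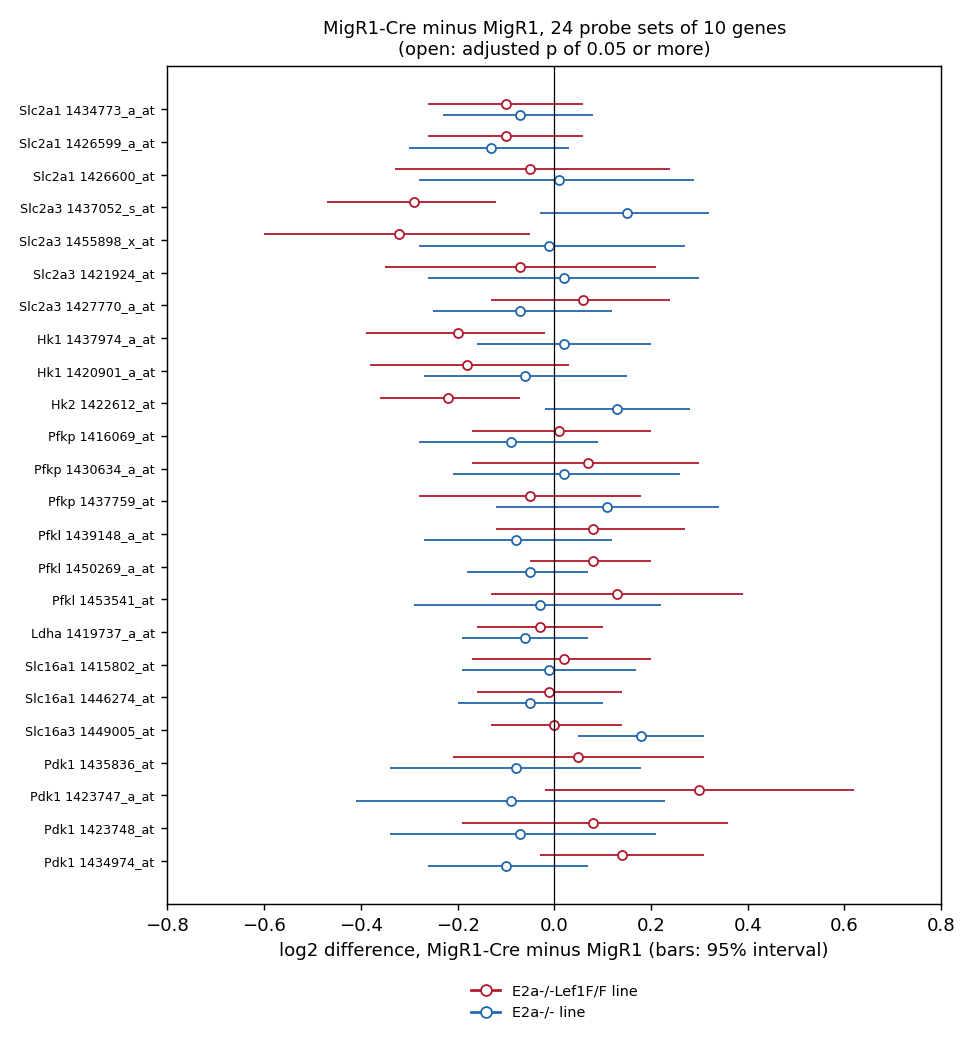
Effect of MigR1-Cre (log2, MigR1-Cre minus MigR1) at each of the 24 probe sets in the E2a-/-Lef1F/F line (upper mark of each row) and in the E2a-/- line (lower mark), with 95% intervals. Marks are open because adjusted p was 0.05 or more for each; in the Lef1F/F line the intervals of 2 Slc2a3 probe sets, Hk2 and Hk1 lay below 0.

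The rest of the pathway was read through lists, each gene at its brightest probe set, beside the 14.6% of 18193 genes that differed between the lines in MigR1 arrays and the 16.1% in MigR1-Cre arrays. Of 11 other glucose transporter genes, 0 passed in either, and the smallest p belonged to Slc2a8 in MigR1 arrays (0.28 ± 0.09, adjusted p = 0.118). Of 17 other glycolysis enzymes measured, Pfkm fell in both kinds of array, Bpgm, which makes 2,3-bisphosphoglycerate, fell in MigR1-Cre arrays (-0.68 ± 0.11, adjusted p = 0.00497), and Eno3, the muscle type enolase, rose in MigR1 arrays (0.50 ± 0.09, adjusted p = 0.0113). In each kind of array the other 15 did not pass, Pgk1 among them (0.06 ± 0.06 in MigR1-Cre and 0.04 ± 0.06 in MigR1 arrays). The list median was -0.02 in MigR1-Cre and 0.01 in MigR1 arrays, against 0 over all genes.

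Of 6 regulators of phosphofructokinase, 1 passed in each kind of array. Pfkfb3 makes fructose 2,6-bisphosphate, the strongest known activator of phosphofructokinase, and stood at 194 and 205 in Lef1F/F MigR1-Cre arrays and 179.9 and 171 in Lef1F/F MigR1 arrays, against 92.03 and 95.6 in E2a-/- MigR1-Cre arrays and 102 and 89.0 in E2a-/- MigR1 arrays. It was 2.13-fold higher in MigR1-Cre arrays (adjusted p = 8.56e-05) and 1.84-fold in MigR1 arrays (adjusted p = 0.000246), while its dimmer probe set gave -0.08 and -0.06. Among 11 genes of pyruvate entry into mitochondria, Pdk3, a further pyruvate dehydrogenase kinase, rose (0.97 ± 0.08 and 1.12 ± 0.08, adjusted p = 0.000177 in MigR1-Cre and 7.65e-05 in MigR1 arrays). Pdhb, a subunit of pyruvate dehydrogenase, rose too (0.44 ± 0.09 and 0.40 ± 0.09, adjusted p = 0.0127 and 0.0225), and Pdp2, a phosphatase that opposes the kinases, fell (-0.75 ± 0.14 and -0.60 ± 0.14, adjusted p = 0.00937 and 0.0282). In MigR1-Cre arrays Pdp1, another such phosphatase, rose (0.58 ± 0.11) and Pdhx, a binding subunit of the complex, fell (-0.35 ± 0.08).

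Around the lactate transporters, 2 of 12 other genes rose and 0 fell. Slc16a10, which carries aromatic amino acids and not lactate, stood at 624 and 627 in Lef1F/F MigR1-Cre arrays and 752 and 668 in Lef1F/F MigR1 arrays, against 218 and 246 in E2a-/- MigR1-Cre arrays and 242 and 265 in E2a-/- MigR1 arrays, and passed at all 4 of its probe sets. Emb, which encodes embigin, a partner that brings monocarboxylate transporters to the membrane, gave 213 and 229.6 in Lef1F/F MigR1-Cre arrays and 292 and 340.4 in Lef1F/F MigR1 arrays, against 156 and 143 in E2a-/- MigR1-Cre arrays and 139 and 158 in E2a-/- MigR1 arrays. The line differences of Emb were 0.57 ± 0.10 (adjusted p = 0.00754) and 1.09 ± 0.10 (adjusted p = 0.000254). Its effect of MigR1-Cre in the Lef1F/F line was -0.51 ± 0.10 (adjusted p = 0.208), with the arrays apart, and 0.01 ± 0.10 in the E2a-/- line. Bsg, which encodes basigin, the usual partner of MCT1 and MCT4, did not pass (0.06 ± 0.08 and -0.18 ± 0.08).

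Of the pentose phosphate pathway, which branches off after hexokinase, 2 of 6 measured genes rose and 1 fell in each kind of array. Rpia rose by 0.70 ± 0.08 and 0.57 ± 0.08 (adjusted p = 0.00112 in MigR1-Cre and 0.0034 in MigR1 arrays) and Tkt by 0.29 ± 0.08 and 0.37 ± 0.08 (adjusted p = 0.0457 and 0.0196), both of the non-oxidative branch. Pgd, of the oxidative branch, fell (-0.86 ± 0.09 and -0.72 ± 0.09, adjusted p = 0.000652 and 0.0017), as did its 3 other probe sets. In the TCA cycle, which oxidises what pyruvate dehydrogenase delivers, 0 of 16 rose. Ogdh fell in both kinds of array (-0.65 ± 0.14 and -0.55 ± 0.14, adjusted p = 0.023 and 0.0476) and Suclg1 in MigR1 arrays (-0.26 ± 0.06, adjusted p = 0.0353), and the list medians were -0.16 and -0.11.

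Among genes of the hypoxia response, which often move with glycolysis genes, 6 of 18 rose and 1 fell in MigR1-Cre arrays and 7 rose and 2 fell in MigR1 arrays, with medians of 0.20 and 0.24. Ndrg1, induced by low oxygen and other stress, was the most different, at 1626 and 2088 in Lef1F/F MigR1-Cre arrays and 1997 and 2436 in Lef1F/F MigR1 arrays, against 683 and 651 in E2a-/- MigR1-Cre arrays and 616 and 733 in E2a-/- MigR1 arrays (2.77-fold and 3.28-fold higher). Egln3, a prolyl hydroxylase that marks hypoxia inducible factors for decay, rose by 1.06 ± 0.09 and 1.25 ± 0.09 (adjusted p = 0.000151 in MigR1-Cre and 5.32e-05 in MigR1 arrays). Epas1, which encodes a subunit of those factors, rose by 1.18 ± 0.11 and 1.32 ± 0.11, while its dimmer probe set gave 0.08 and 0.00. Ero1a, an oxidase of the endoplasmic reticulum, rose by 0.88 ± 0.09 and 0.80 ± 0.09. Higd1a, a mitochondrial protein, fell at its brightest probe set (-0.74 ± 0.10 and -0.60 ± 0.10) and not at its other 2 (0.03 to 0.06), while Bnip3, a factor in the removal of mitochondria, fell in MigR1 arrays (-0.65 ± 0.14, adjusted p = 0.022). The remaining calls were rises of Car9 and P4ha1 in both kinds of array (0.47 and 0.36 in MigR1-Cre arrays, 0.43 and 0.31 in MigR1 arrays) and of P4ha2 in MigR1 arrays (0.36). Hif1a, the main subunit, gave 0.11 ± 0.09 and -0.07 ± 0.09 (adjusted p = 0.553 and 0.754).

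**Figure D5:**
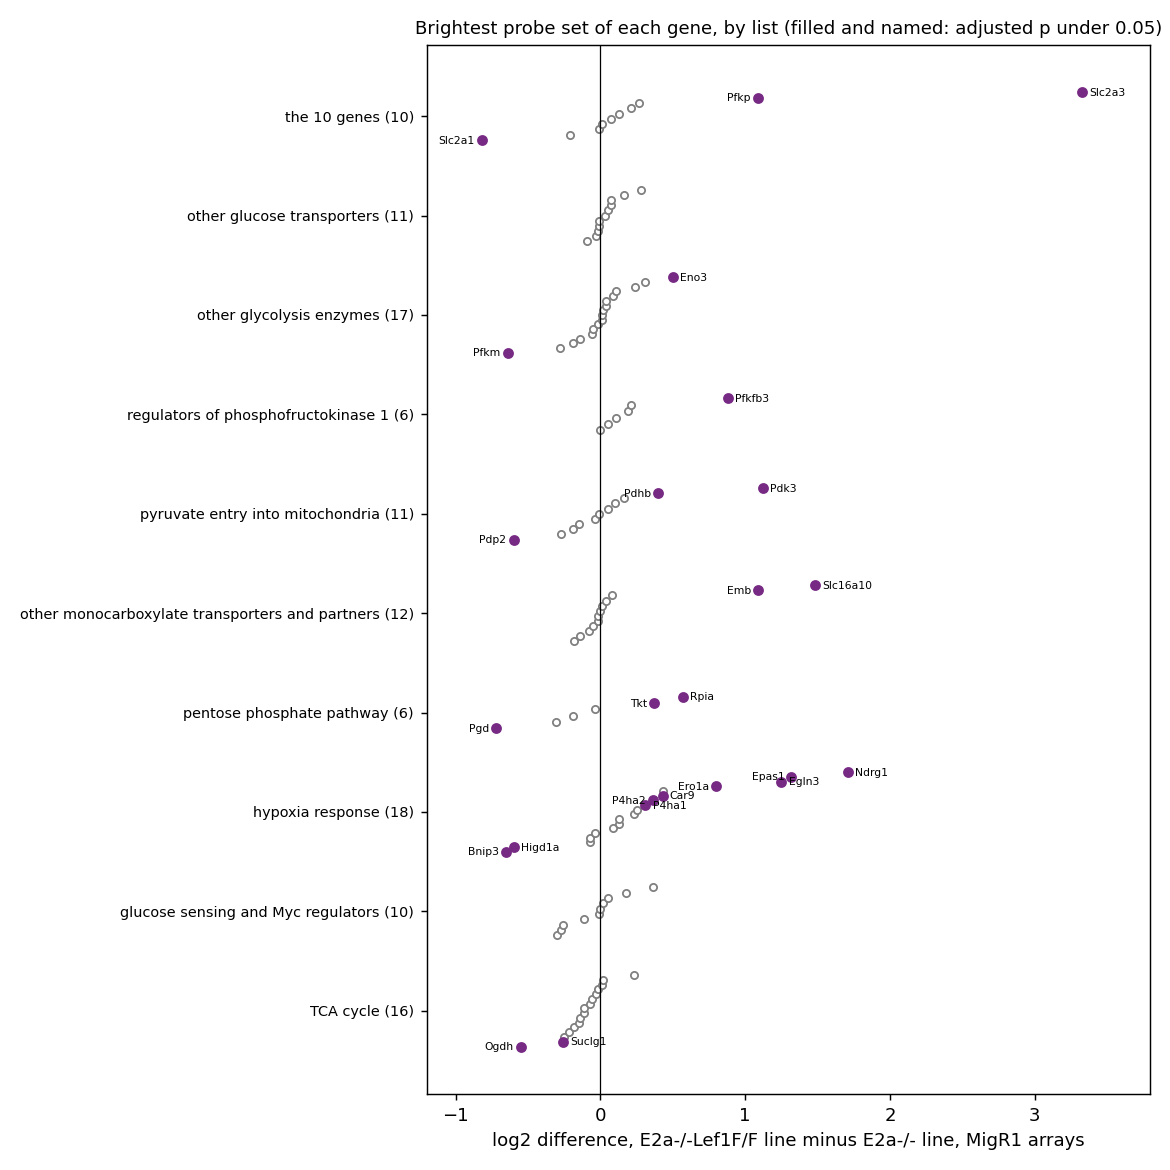
Difference between the lines in MigR1 arrays (log2, E2a-/-Lef1F/F line minus E2a-/- line) for the brightest probe set of each gene, by list, with the number of genes in brackets. Filled and named points have adjusted p under 0.05; Slc2a3 at 3.33 lies farthest from 0 in these lists, and the other glucose transporters and the glucose sensing and Myc regulators hold 0 filled points.

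Of 10 glucose sensing genes and Myc regulators, 0 passed in MigR1 arrays and Mxi1, a Myc antagonist, passed in MigR1-Cre arrays (0.48 ± 0.11, adjusted p = 0.0214). Myc gave 3081 and 2663 in Lef1F/F MigR1-Cre arrays and 2924 and 2544 in Lef1F/F MigR1 arrays, against 2907 and 2815 in E2a-/- MigR1-Cre arrays and 2923 and 2550.5 in E2a-/- MigR1 arrays. Mycn had the largest differences after MigR1-Cre among the pathway lists in each line, at 7353 and 5481 in Lef1F/F MigR1-Cre arrays, against 11049 and 9317 in Lef1F/F MigR1 arrays, and at 6470.4 and 6640 in E2a-/- MigR1-Cre arrays, against 12653 and 11713 in E2a-/- MigR1 arrays. Its log2 differences were -0.68 ± 0.14 in the Lef1F/F line (unadjusted limma p of 0.00114, adjusted p = 0.238) and -0.89 ± 0.14 in the E2a-/- line (unadjusted limma p of 0.000184, adjusted p = 1). The differences were 0.22 ± 0.19 apart (adjusted p = 1). In each line the MigR1-Cre arrays of Mycn lay below the MigR1 arrays. Its other 2 probe sets, dim in all arrays, gave 0.06 and 0.08 in the Lef1F/F line and 0.03 and -0.02 in the E2a-/- line. Across the pathway lists 0 genes passed for MigR1-Cre in either line, against 0.286% of all genes in the Lef1F/F line and 0% in the E2a-/- line. Between the lines, dividing-cell genes held 0 of 7 past the threshold in MigR1-Cre arrays and 1, Top2a (0.37 ± 0.09, adjusted p = 0.0433), in MigR1 arrays. Of the 7, 5 lay above 0 in each kind of array, with medians of 0.17 in MigR1-Cre and 0.22 in MigR1 arrays. A difference in growth rate was not tested.

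Single arrays decided several of these list calls. In MigR1 arrays, Pfkm, Pdhb, Pdp2, Tkt, Bnip3, Higd1a, Car9, P4ha1, P4ha2, Ogdh, Suclg1 and Top2a did not pass without E2a-/- MigR1 array 1 or array 2, and Eno3 did not without array 2. In MigR1-Cre arrays Pfkm, Pdhb, Pdp1, Pdp2, Pdhx, Tkt, Emb, Mxi1, Car9, P4ha1 and Ogdh each lost their call without at least 1 of the 4 arrays compared. With an array left out, adjusted p reached 0.185 for Pfkm, 0.172 for Pdhb, 0.284 for Ogdh, 0.277 for Top2a and 0.233 for Tkt. Pfkfb3, Pdk3, Slc16a10, Pgd, Rpia, Ndrg1, Egln3, Epas1 and Ero1a stayed past the threshold in both kinds of array whichever array was left out.

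The profile of Slc2a3, which had the widest range of the 10 genes over the arrays (3.41 on the log2 scale), was set beside all named genes. The 3 closest, by Euclidean distance between centred log2 profiles over 8 arrays, were Acvr1 (distance 0.374), a receptor of the BMP family, St6gal1 (0.408), a sialyltransferase, and Rab34 (0.411), a small GTPase. The 8 points share 2 lines, so such closeness mainly restates the line difference, which was 3.13 for Acvr1, 2.92 for St6gal1 and 2.80 for Rab34 in MigR1-Cre arrays and 3.47, 3.63 and 3.02 in MigR1 arrays. With MigR1-Cre, St6gal1 in the Lef1F/F line gave -0.49 ± 0.12 and Acvr1 -0.31 ± 0.09, neither past the threshold (adjusted p = 0.474 and 0.595). Rab34 gave -0.07 ± 0.07 there, did not pass either, and its arrays overlapped.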

How the data were processed

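Labelled RNA of 8 samples was hybridised to Affymetrix Mouse Genome 430 2.0 arrays. The authors ran RMA in RMAExpress and deposited 1 linear intensity per array for each of 45037 probe sets. RMA makes arrays alike in distribution and compresses low values. The study's dChip comparison was not used. Groups came from the sample titles. Here log2 was taken with no offset, group means were fitted to all 8 arrays with limma 3.58.1 in R 4.3.3 (4 residual and 3.99 prior degrees of freedom), and two-sided p-values got a Benjamini-Hochberg adjustment in each of 5 contrasts over 45037 probe sets. An exact permutation test of 2 against 2 arrays cannot go below p = 0.333. Genes came from the 34945 probe sets with 1 symbol (932 had several, 9160 none). A gene was read at its probe set with the highest mean log2. Named were all member probe sets and, per list, up to 4 genes past the threshold by size or 2 with the smallest p; Hif1a, Myc, Bsg, Pgk1 and further genes that complete a count were named after their values were seen. The members and lists were chosen with earlier results of these data known. Of 177 list entries, 160 were measured under a name, and the others (Gapdh, Eno1 and Gpi1 among them) were not analysed here. Promoters are from RefSeq (GRCm38.p6). The fit was tested on simulated data. The 11 alternatives are those of the closing section.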

Additional observations from a re-analysis of the deposited data

Results flagged for a closer look

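At 4 of the 24 member probe sets, arrays of the Lef1F/F line moved one way after MigR1-Cre and those of the E2a-/- line the other way, without overlap in either. Over all 45037 probe sets 4.32% (1946) did so. They are Slc2a3 at 1437052_s_at, with a difference of -0.44 between the effects (-0.29 in the Lef1F/F line and 0.15 in the E2a-/- line), Hk2 with -0.34 (-0.22 and 0.13), Pfkl at 1450269_a_at with 0.13 (0.08 and -0.05) and Pdk1 at 1434974_at with 0.24 (0.14 and -0.10). The limma test of the difference gave adjusted p = 1 for each of them. Pdp1 with 0.42 (0.21 and -0.21), P4ha2 with -0.20 (-0.16 and 0.04), Acvr1 with -0.35 (-0.31 and 0.04) and St6gal1 with -0.70 (-0.49 and 0.21) were apart in the same way, also with adjusted p = 1. Acvr1 and St6gal1 had been picked for closeness to Slc2a3 over these same arrays. That choice favours genes that share its pattern, so they are not separate cases of it. Lef1, the floxed gene, passed that test, with a difference of -1.82 (-1.87 and -0.05, adjusted p = 0.0184), which was lost without either array of each E2a-/- group (adjusted p = 0.166 to 0.213).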

How the results depend on the processing

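With 2 arrays a group and 1 line per genotype, precision is limited and small effects can be missed; dim probe sets understate differences. The 24 probe sets held 0 calls for MigR1-Cre in either line, and for the difference, under every alternative run. Between the lines, the member calls were 6 in MigR1 arrays and 8 in MigR1-Cre arrays. They were 2 and 3 without probe sets whose names mark shared probes, which leaves Slc2a3 only its dim 1421924_at. With each array left out they ranged from 5 to 7 and from 6 to 10. No called member value changed sign. With a gene's probe sets averaged, calls count genes and not probe sets. Of the 10 genes, 3 then passed in MigR1 arrays and 6 in MigR1-Cre arrays. At the brightest probe sets 2 rose and 1 fell in MigR1 arrays, and 2 rose and 2 fell in MigR1-Cre arrays. Ldha passed in MigR1-Cre arrays with 32 added before log2 (adjusted p = 0.0426) and by gene mean (0.0462), Pdk1 by gene mean (0.0281), and Hk1 passed in MigR1 arrays without Lef1F/F MigR1 array 1 (0.043). Over all probe sets, the 75 calls for MigR1-Cre in the Lef1F/F line became 0 with only the arrays compared, 46 with array weights, 27 at a threshold of 0.01 and 20 to 33 with an array left out. The 0 calls in the E2a-/- line became 1 with only the arrays compared. The 9 calls for the difference became 5 with a filter on dim probe sets, 4 without shared probe sets, 0 at 0.01 and 0 to 7 with an array left out. Line calls were 2980 and 3160 by gene mean and 2583 and 2841 at 0.01 in MigR1 and MigR1-Cre arrays, and 2267 to 5396 and 2804 to 6088 with an array left out. The cause of these shifts was not tested. The main fit was unpaired because the labels tie no array of a group to an array of another, so the design gives no block. An exploratory block that instead paired Lef1F/F arrays by their likeness in the data gave 345, 1 and 86 calls for MigR1-Cre in the Lef1F/F line, in the E2a-/- line and for the difference; the block called 0 of the 24 probe sets, and Emb in the Lef1F/F line (-0.51, adjusted p = 0.00819) and Mycn in both lines (adjusted p = 0.000522 and 0.00121) passed with it, as did St6gal1 in the Lef1F/F line (0.00832) and for the difference (0.0188). Lef1 in the Lef1F/F line gave adjusted p = 0.135 with only the arrays compared. Array 2 lay on the same side of array 1 after both vectors at 79.2% of member probe sets in the Lef1F/F line and 75% in the E2a-/- line, against 63.2% and 48% of all.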
